A study of Homo sapiens with 4 samples.

Results

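The 7 subunits of respiratory complex I that are encoded in mitochondrial DNA were examined: MT-ND1, MT-ND2, MT-ND3, MT-ND4, MT-ND4L, MT-ND5 and MT-ND6. They were taken by gene symbol, and each has a single listed transcript, so the members are 7 of the 227368 transcripts in the tables, on the mitochondrial chromosome of GRCh38. RNA came from H1299, an established cell line from a human non-small-cell lung carcinoma, in 2 groups, to ask how a low dose of mercury chloride changes transcription. One group received HgCl2 at 5 μM for 48 h, and the other the ethanol solvent, named EtOH; the deposited treatment text gives the 5 μM for every sample, and the control is described here after the methods of the study. The labels call the EtOH cells wild type and name no further allele or agent, and each group has 2 columns, replicates 1 and 2.

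Complex I takes electrons from NADH, passes them to ubiquinone and pumps protons across the inner mitochondrial membrane. All of its mitochondrial-encoded subunits lie in the membrane arm, while the remaining subunits are made from nuclear genes. The mitochondrial genome is copied into long transcripts from both strands, which are cut, mostly at tRNAs, into mature RNAs. The mRNAs of 6 members come from heavy-strand transcription, and that of MT-ND6 is the only mRNA made from the light strand.

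Reads were counted on poly-A selected RNA, and a poly-A tail also completes the stop codon of several of these mRNAs. The last 30 bases of each member, written 5′ to 3′ on its own mRNA strand from GRCh38, are shown with the stop codon, or the part of it that the gene encodes, in capitals:
MT-ND1: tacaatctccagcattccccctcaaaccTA
MT-ND2: ctatctccccttttatactaataatcttaT
MT-ND3: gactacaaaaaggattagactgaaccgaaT
MT-ND4: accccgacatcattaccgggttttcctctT
MT-ND4L: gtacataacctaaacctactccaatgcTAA
MT-ND5: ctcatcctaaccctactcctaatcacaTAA
MT-ND6: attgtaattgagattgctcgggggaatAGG

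MT-ND1 ends in 2 bases of a stop codon, and MT-ND2, MT-ND3 and MT-ND4 in 1 base, so these 4 members need added adenines to be complete. MT-ND6 ends in AGG, a stop signal of human mitochondria, and its mRNA is known to carry little or no poly-A tail. Strand also set the base composition of the mRNAs. Guanine made up 9.50% (MT-ND2) to 12.1% (MT-ND4L) of the bases of the heavy-strand members and 35.6% of MT-ND6, while cytosine made up 29.5% (MT-ND3) to 36.0% (MT-ND1) and 7.05%.

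Neighbouring members touch or overlap. The end of MT-ND4L and the start of MT-ND4 share 7 bases, in capitals in this plus-strand stretch (chrM:10738-10789, GRCh38), and both are read from a single mRNA:
MT-ND4L/MT-ND4: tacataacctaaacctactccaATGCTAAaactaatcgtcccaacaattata
MT-ND5 and MT-ND6 abut head-on. In this plus-strand stretch (chrM:14119-14178, GRCh38) the lower-case letters end MT-ND5 and the capitals are the complement of the end of MT-ND6:
MT-ND5/MT-ND6: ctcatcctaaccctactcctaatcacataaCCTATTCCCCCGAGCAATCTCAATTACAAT

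The 4 columns held 4720978 to 5053120 counts. Fewer transcripts had a count in HgCl2 (25432 and 25531) than in EtOH (33148 and 33106). The part of this difference in the shares of all transcripts given below was not tested. The columns of a group were closer to each other than counting noise: over 12382 transcripts with at least 20 counts in the pair, the variance of the difference between the EtOH columns was 0.504 times the counting variance, and between the HgCl2 columns it was 0.516 times over 10611 transcripts. For an EtOH column against an HgCl2 column the ratio was 31.9. Although the study describes independent replicates, the columns within a group differed by less than sampling noise, so each group counts as 1 sample, whose value is the column mean. No difference given here has a replicate check or a p-value, and all intervals are 95% intervals that cover counting error only. As a check of the line, VIM held 501 to 628 counts, KRT18 18 to 31 and KRT8 53 and 58 in EtOH against 4 and 4 in HgCl2, summed over the transcripts of each gene.

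Together the 7 transcripts held 387220 and 387074 counts in EtOH and 254917 and 253860 in HgCl2, by column. This was 7.66% of all counts in EtOH (Clopper-Pearson interval 7.64 to 7.69) and 5.39% in HgCl2 (5.37 to 5.41). The HgCl2 group was lower. In shares of bulk RNA, less RNA per cell, fewer cells that carry it and more of other RNA cannot be told apart. On the count scale with TMM normalization (edgeR 4.0.16, fitted over the 17547 transcripts whose mean FPKM exceeded 1 in either group), the log2 fold change of the sum, HgCl2 against EtOH, was -0.46 (-0.47 to -0.46).

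**Figure D1:**
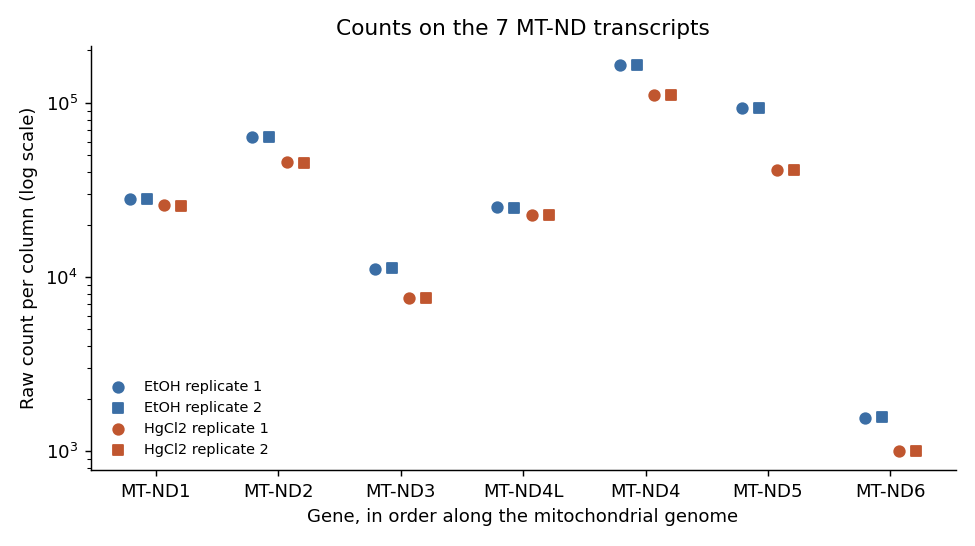
Raw counts of the 7 MT-ND transcripts in each of the 4 columns, on a log axis, in order along the mitochondrial genome; circles and squares mark replicates 1 and 2. MT-ND4 has the most counts (110431 to 164456) and MT-ND6 the fewest (1004 to 1576), and the HgCl2 points lie below the EtOH points for every gene before normalization.

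The members differed widely among themselves. MT-ND5 stood at 48.9% of its EtOH level, MT-ND2, MT-ND3, MT-ND4 and MT-ND6 at 71.0% to 78.7%, and MT-ND1 and MT-ND4L at 102% and 99.9%. The counting interval lay below 0 for 5 of the 7 members and above 0 for none. Among all tested transcripts it lay below 0 for 23.1%, and among those with a mean of at least 200 counts, as every member has, for 22.1%; above 0 it lay for 27.7% and 54.9%. At least 2-fold lower was 1 member, MT-ND5, where the shares were 34.1% of all tested transcripts and 2.03% of those averaging 200 or more counts. At least 1.5-fold lower was again MT-ND5 alone, against 41.8% and 7.23%. No member was at least 2-fold higher, against 19.2% and 4.65%, or 1.5-fold higher, against 27.5% and 18.7%.

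Whether a member lay above or below 0 depended in part on the scaling. The median log2 fold change was -0.21 over all tested transcripts and 0.21 over the 2712 with a mean of at least 200 counts, and -0.41 over the 7 members. On the deposited FPKM scale, as log2(FPKM + 1), these medians were -0.03, 0.37 and -0.23. MT-ND2, MT-ND3, MT-ND4, MT-ND5 and MT-ND6 were lower in HgCl2 under every normalization and filter tried. MT-ND1 ranged from -0.15 to 0.20 and MT-ND4L from -0.17 to 0.18, so no direction is given for either.

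**Figure D2:**
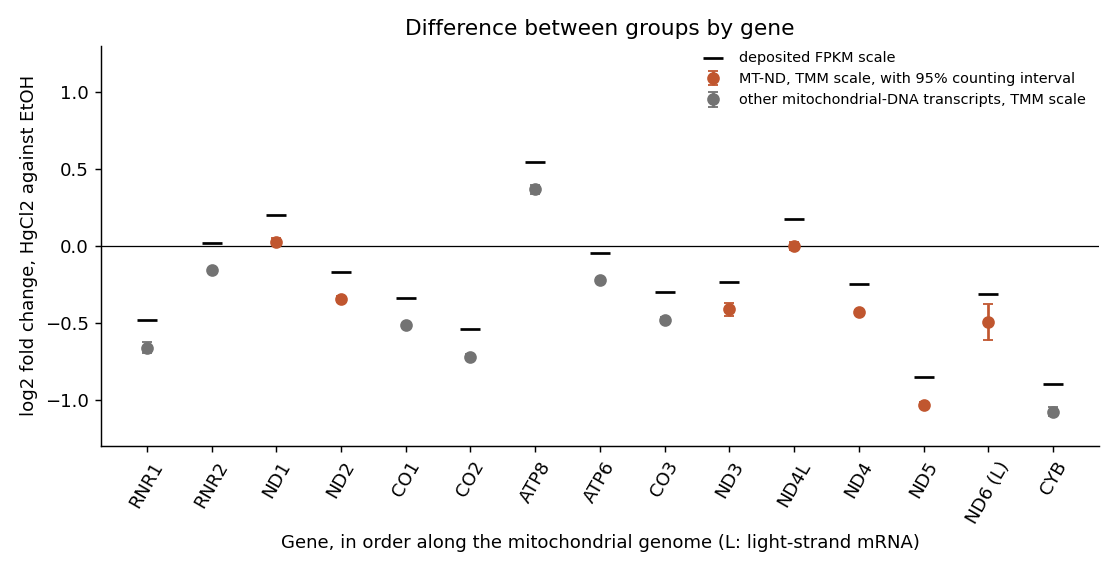
Log2 fold change of HgCl2 against EtOH (vertical axis) for the MT-ND transcripts (orange) and the other mRNAs and ribosomal RNAs of the mitochondrial genome (grey), in genome order, on the TMM scale with 95% counting intervals, and on the deposited FPKM scale (black dashes). MT-ND5 (-1.03) is the lowest member, next to MT-CYB (-1.08), while MT-ND1 (0.02) and MT-ND4L (-0.00) lie at 0 on the TMM scale and above it on the FPKM scale.

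MT-ND2, MT-ND4 and MT-ND5 are the antiporter-like subunits, which form the proton-pumping core of the membrane arm, with MT-ND5 at its far end. MT-ND5 (ENST00000361567, chrM:12337-14148, plus strand) had 92984 and 93077 counts in EtOH and 41134 and 41160 in HgCl2. Its HgCl2 counts were the lower ones. Its log2 fold change was -1.03 (-1.05 to -1.02), and it stayed between -1.21 and -0.86 over the alternatives. It was under the 2-fold threshold with DESeq2 1.42.0 (-0.99), with no filter (-0.89) and on the FPKM scale (-0.86).

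MT-ND4 (ENST00000361381, chrM:10760-12137), the member with the most counts, had 164388 and 164456 in EtOH and 110866 and 110431 in HgCl2. The HgCl2 columns were the lower ones, with a log2 fold change of -0.43 (-0.44 to -0.42). MT-ND2 (ENST00000361453, chrM:4470-5511) had 64014 and 63630 counts in EtOH and 45540 and 45359 in HgCl2, a log2 fold change of -0.35 (-0.36 to -0.33). The antiporter-like members thus did not share a single difference. MT-ND5 was lower relative to MT-ND4, counted in the same columns, by a log2 difference of -0.61 (-0.63 to -0.59), which no scaling of the columns can alter.

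MT-ND1, MT-ND3, MT-ND4L and MT-ND6 lie in the part of the membrane arm next to the peripheral arm, where ubiquinone is reduced and, in MT-ND1, bound. MT-ND1 (ENST00000361390, chrM:3307-4262) had 28131 and 28107 counts in EtOH and 26026 and 25748 in HgCl2. Its log2 fold change was 0.02, with an interval of -0.00 to 0.05. MT-ND3 (ENST00000361227, chrM:10059-10404) had 11051 and 11198 counts in EtOH and 7567 and 7578 in HgCl2, and was lower by a log2 fold change of -0.41 (-0.45 to -0.37). MT-ND4L (ENST00000361335, chrM:10470-10766), the shortest member with 297 bases, had 25100 and 25030 counts in EtOH and 22778 and 22580 in HgCl2. Its log2 fold change was -0.00 (-0.03 to 0.03). MT-ND1 and MT-ND4L did not differ from each other in their response beyond counting error, with a difference of -0.02 (-0.06 to 0.01), whereas MT-ND4L against MT-ND3, its neighbour in the genome, differed by 0.41 (0.36 to 0.46).

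The make-up of the MT-ND counts differed between the groups. MT-ND5 held 24.0% of the MT-ND counts in EtOH and 16.2% in HgCl2. MT-ND1 held 7.26% and 10.2%, and MT-ND4L 6.47% and 8.92%. The shares of the others moved less, from 42.5% to 43.5% for MT-ND4, 16.5% to 17.9% for MT-ND2, 2.87% to 2.98% for MT-ND3 and 0.404% to 0.395% for MT-ND6. Shares add to a fixed total, so a lower MT-ND5 share raises the others. By raw count MT-ND5 ranked 5 among all transcripts in EtOH and 11 in HgCl2, and MT-ND3 ranked 30 and 52.

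The levels per transcript length spread over the members. In EtOH the mean deposited FPKM was 21721 for MT-ND4, 15363 for MT-ND4L, 11150 for MT-ND2, 9346 for MT-ND5, 5853 for MT-ND3, 5354 for MT-ND1 and 542 for MT-ND6. In HgCl2 it was 18264 for MT-ND4, 17368 for MT-ND4L, 9921 for MT-ND2, 6159 for MT-ND1, 5165 for MT-ND5, 4978 for MT-ND3 and 435 for MT-ND6. MT-ND1 was in the sixth place in EtOH and the fourth in HgCl2, above MT-ND5 and MT-ND3. None of the 6 pairs of neighbours in either order had overlapping counting intervals. These intervals leave out reads that nuclear copies may share with MT-ND1 and MT-ND2. The copies of MT-ND1 held 8.68% of its count in EtOH, where MT-ND1 (5354) and MT-ND3 (5853) lay close. The order of MT-ND1 and MT-ND3 in EtOH is therefore not settled by the intervals. Since the FPKM per count was set by the authors for each column, the order within a column does not depend on scaling, while the distance between columns does. By FPKM, MT-ND4 ranked 4 among all listed transcripts in EtOH and 5 in HgCl2, and MT-ND6 ranked 79 and 120.

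**Figure D3:**
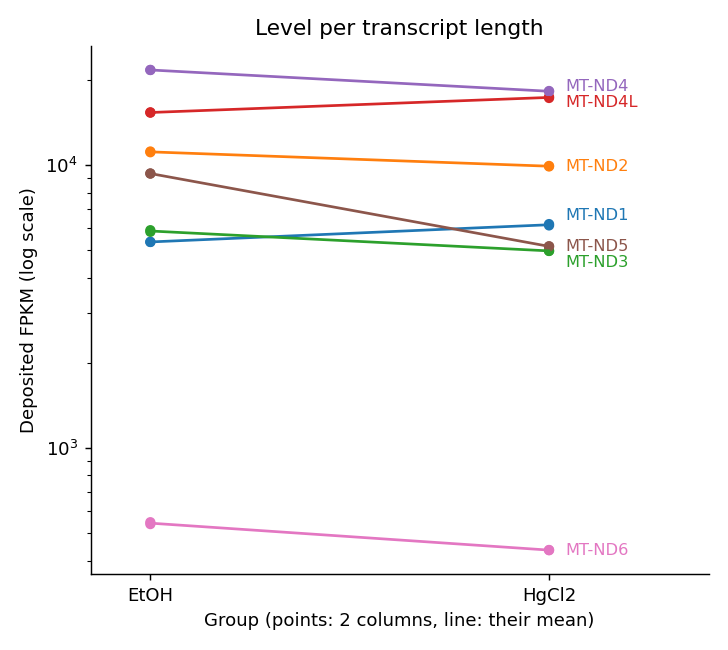
Deposited FPKM of each MT-ND transcript in EtOH and HgCl2 on a log axis, with a point for each column and a line between the group means. The MT-ND5 line (9346 to 5165) crosses that of MT-ND1 (5354 to 6159), and MT-ND4 and MT-ND4L draw together, at 18264 and 17368 in HgCl2.

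The light-strand member was set against the heavy-strand members. MT-ND6 (ENST00000361681, chrM:14149-14673, minus strand) had 1552 and 1576 counts in EtOH and 1006 and 1004 in HgCl2. It was lower in HgCl2 by a log2 fold change of -0.49 (-0.61 to -0.38). The summed heavy-strand members held 385668 and 385498 counts in EtOH and 253911 and 252856 in HgCl2, a log2 fold change of -0.46 (-0.47 to -0.46). Per 1000 heavy-strand counts, MT-ND6 had 4.02 and 4.09 counts in EtOH and 3.96 and 3.97 in HgCl2. The log2 difference between MT-ND6 and the heavy-strand sum was -0.03 (exact conditional interval -0.15 to 0.08), so a difference was not detectable at this depth beyond those bounds.

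That near-equality was shared by some single genes and not by others. MT-ND6 was lower relative to MT-ND1 by -0.52 (-0.64 to -0.40), to MT-ND4L by -0.49 (-0.61 to -0.38) and to MT-ND2 by -0.15 (-0.27 to -0.03). Against MT-ND5 it was higher, by 0.54 (0.42 to 0.66). Its differences from MT-ND3, at -0.08 (-0.21 to 0.04), and from MT-ND4, at -0.07 (-0.18 to 0.05), were within counting error. Without MT-ND5 in the heavy-strand sum the difference was -0.18 (-0.29 to -0.06), and with FPKM summed in place of counts, which gives short transcripts more weight, it was -0.16. Spread over its length, MT-ND6 was at 0.101 times the FPKM of MT-ND1 in EtOH and 0.0707 times in HgCl2. The libraries were poly-A selected, the kit named in the methods does not mark strand although the study calls its sequencing directional, and the counting setting for strand is not given in the sources used here. Reads of the opposite strand over MT-ND6 therefore cannot be told apart from its own mRNA, and the part of poly-A selection in its level was not tested.

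MT-ND4L and MT-ND4 are translated from the same mRNA, in the overlapping frames printed above, and MT-ATP8 and MT-ATP6 form the other such pair of the genome. Per length, the FPKM of MT-ND4 was 1.41 and 1.42 times that of MT-ND4L in EtOH and 1.05 times in both columns of HgCl2. The log2 difference of their responses was -0.43 (-0.46 to -0.40). For MT-ATP6 over MT-ATP8 the ratio was 1.31 and 1.31 in EtOH and 0.877 and 0.867 in HgCl2, a log2 difference of -0.59 (-0.62 to -0.56). In both pairs the open reading frame at the 5′ end, which is also the shorter one, was thus higher in HgCl2 relative to its partner. Position and length cannot be told apart in these pairs. These ratios are taken within a column and do not depend on scaling. Frames of 1 mRNA thus differed about as much as MT-ND4L and MT-ND3, at 0.41 (0.36 to 0.46). Differences between members are therefore read as those of the counted stretches, and whether whole mRNAs differ was not tested. How reads over bases that belong to both transcripts were counted is not given in the sources used here, and its part was not tested.

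**Figure D4:**
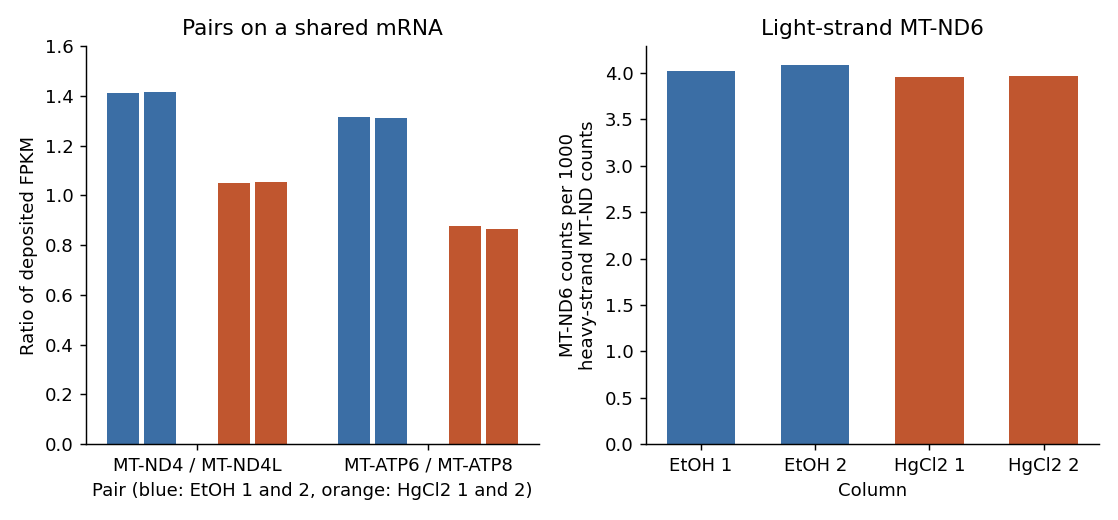
Left, ratio of deposited FPKM (bars from 0) of the second to the first reading frame on each shared mRNA, in the EtOH (blue) and HgCl2 (orange) columns; right, MT-ND6 counts per 1000 counts of the 6 heavy-strand members in each column. The MT-ND4 to MT-ND4L ratio is 1.41 and 1.42 in EtOH and 1.05 in both HgCl2 columns, whereas the MT-ND6 values stay between 3.96 and 4.09.

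Against the other mRNAs of the mitochondrial genome the members as a class differed little. The 6 other mRNAs had a summed log2 fold change of -0.49 (-0.50 to -0.49), and the members were higher relative to them by 0.03 (0.02 to 0.04). Of all counts on mitochondrial mRNAs the members held 37.7% in EtOH and 38.2% in HgCl2. Values within that class ran from -1.08 for MT-CYB, the cytochrome b of complex III, to 0.37 for MT-ATP8, a subunit of ATP synthase. MT-ND5 and MT-CYB, which lie on either side of MT-ND6, differed by 0.05 (0.01 to 0.08). Along the genome the log2 fold change of the 6 heavy-strand members had a Spearman's rho of -0.83 and a Pearson's r of -0.71 with gene order, although MT-ND4L, at -0.00, stood above MT-ND2 and MT-ND3, which precede it. With transcript length the values in the same 6 members were -0.71 and -0.72. Without MT-ND5, rho was -0.70 with order and -0.50 with length, and r was -0.39 and -0.32. Over the 12 heavy-strand mRNAs rho was -0.47 with order and -0.66 with length, and r was -0.50 and -0.65. These describe genes that share libraries and precursor transcripts, and carry no test.

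Nuclear copies of mitochondrial genes can take reads from MT-ND1 and MT-ND2. MTND2P28 (chr1:629640-630683) is identical to MT-ND2 at 98.4% of 1042 aligned bases, and 34.4% of the 75-base windows, the read length of the study, hold no difference. MTND1P23 (chr1:629062-629433) is 99.1% identical over 352 bases, with 51.8% of windows free of a difference. Reads were sequenced in pairs, and a difference in either read can tell a pair apart, which these single-read windows do not take into account. The 60-base stretch in which MTND2P28 differs most from MT-ND2 is shown with differing bases in capitals, chrM:4899-4958 and chr1:630069-630128 of GRCh38, plus strand:
MT-ND2: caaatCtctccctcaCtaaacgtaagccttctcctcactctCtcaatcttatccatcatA
MTND2P28: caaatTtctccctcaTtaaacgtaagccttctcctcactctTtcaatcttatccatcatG

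MTND2P28 had 12162 and 12120 counts in EtOH and 7617 and 7541 in HgCl2, a log2 fold change of -0.54 (-0.58 to -0.49). MTND1P23 had 2438 and 2443 counts in EtOH and 1786 and 1803 in HgCl2, at -0.30 (-0.39 to -0.21). All listed copies together held 19.0% of the MT-ND2 count in EtOH and 16.7% in HgCl2, and for MT-ND1 8.68% and 6.93%. For the remaining members they held at most 0.575%, the value of MT-ND6 in EtOH. Adding the copies to their genes gave log2 fold changes of -0.38 for MT-ND2 and 0.00 for MT-ND1. The rule for reads that match several places is not given in the sources used here, and reads that were dropped for it are in neither count, so the values of MT-ND1 and MT-ND2 are uncertain by an amount that was not measured.

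The nuclear-encoded part of complex I was covered thinly by the counts. The list holds 37 subunits and 18 assembly factors with 489 listed transcripts, of which 366 had 0 counts in all columns, and 8 of the 55 genes had none at all. Of the 61 tested transcripts, from 36 genes, 12 were at least 2-fold higher and 24 at least 2-fold lower in HgCl2. Among all tested transcripts these shares were 19.2% and 34.1%. The log2 fold changes of the 61 had a median of -0.67, against -0.21 over all tested transcripts. Where groups under the floor of 3 counts were given that floor the medians were -0.27 and -0.06. The median of the mean counts of the 61 was 18.8, and the sign of their median differed with depth. For the 20 that averaged 30 or more counts it was 0.30, and over all such transcripts 0.21. With no filter the list had a median of -0.66 and all transcripts one of -0.83. Among the 28 that reached 10 counts in each column, 3 were at least 2-fold higher and 4 lower, where the shares of all transcripts under that filter were 11% and 12.6%.

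Of the 7 nuclear transcripts averaging at least 200 counts, none reached 2-fold, against 2.03% lower and 4.65% higher among all transcripts of that depth. Their median log2 fold change was 0.40, against 0.21 for all of that depth. NDUFS1, the largest iron-sulphur subunit of the peripheral arm, had 633 and 663 counts in EtOH and 767 and 776 in HgCl2, a log2 fold change of 0.40 (0.24 to 0.55). NDUFA1, a small membrane arm subunit, had 543 and 580 in EtOH and 345 and 360 in HgCl2, at -0.53 (-0.72 to -0.33). NDUFA10, an accessory subunit, was counted on a retained intron at 0.43 (0.22 to 0.63). Its protein-coding transcript, with 85 and 96 counts in EtOH and 23 and 21 in HgCl2, was at -1.89 (-2.64 to -1.21). The assembly factor NDUFAF4 was at 0.53 (0.30 to 0.77). The assembly factor DMAC1 was lower at -0.70 (-0.98 to -0.43), and COA1, counted on a transcript marked for nonsense-mediated decay, was at -0.14 (-0.40 to 0.12). NDUFA9, an accessory subunit beside the quinone site, was at 0.68 (0.40 to 0.96). Of the 7, NDUFA1 and DMAC1 had an interval below 0 and NDUFS1, NDUFA10, NDUFAF4 and NDUFA9 one above 0, where 22.1% of all transcripts of that depth lay below and 54.9% above. The FPKM scale raises these values as it does those of the members, and COA1 was at 0.04 on it. Counts on transcripts of multi-isoform genes are not read as the level of the gene.

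Placed among all tested transcripts, MT-ND5 was near the lower edge of the well-counted ones. Of 834 transcripts outside the mitochondrial genome averaging at least 1000 counts, 3 (0.360%) had a log2 fold change at or below that of MT-ND5. At or below the heavy-strand sum lay 42 (5.04%). MT-CYB, which is mitochondrial and so not among the 834, was lower than MT-ND5, at -1.08. The 5 of the 834 nearest to the heavy-strand sum, by the difference of log2 fold changes over the 2 groups, were transcripts of EIF4EBP2 (-0.46), RPL4P4 (-0.48), HACD3 (-0.49), DCAF7 (-0.49) and RPL23AP42 (-0.44). This likeness rests on a single difference between groups.

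**Figure D5:**
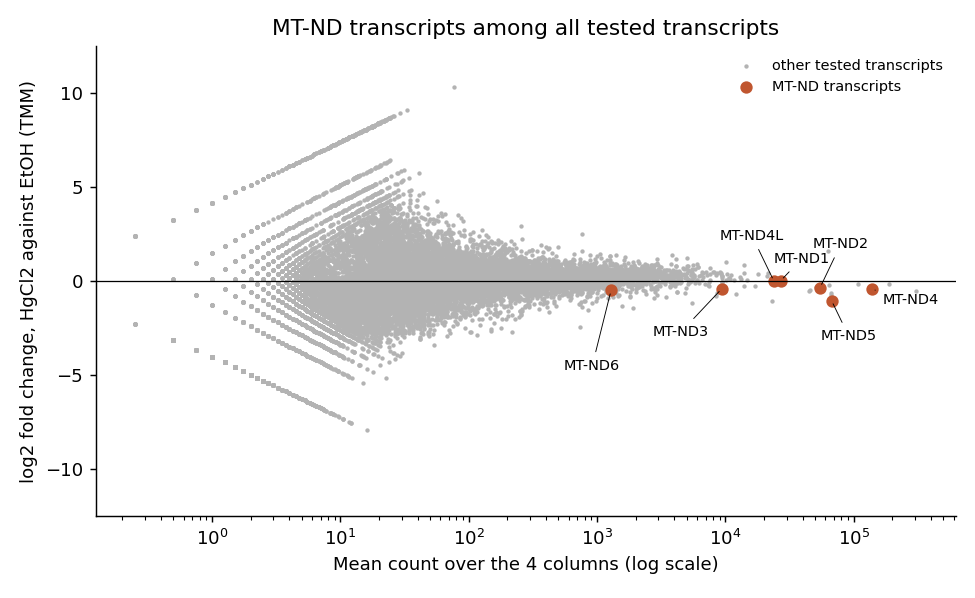
Log2 fold change of HgCl2 against EtOH on the TMM scale (vertical axis) against the mean count over the 4 columns (log axis) for the 17547 tested transcripts, with the MT-ND transcripts in orange. The members lie at the right, where transcripts scatter little, and MT-ND5 (-1.03) is below the others.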

How the data were processed

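Poly-A RNA of H1299 cells was sequenced in pairs after TruSeq library preparation. The authors trimmed reads with Trim Galore, aligned them with STAR 2.5.4b to GRCh38 and made the deposited counts per Ensembl transcript with Rsubread; the counting options are not given in the sources used here. From the counts the authors calculated the deposited FPKM with DESeq2 1.26.0, scaling by median ratios; FPKM per count was 1 constant over length for the 7 members. Columns were assigned by group and replicate number, and 0 further columns were left unused.

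Names and positions were taken from GENCODE 44 on GRCh38 (newer than the annotation the authors used), which named 223558 of 227368 identifiers holding 99.8% of counts. Log2 fold changes were computed from counts with edgeR 4.0.16 (quasi-likelihood fit, TMM, R 4.3.3) where mean FPKM exceeded 1 in either group, tested on simulated counts, with DESeq2 1.42.0 as an alternative. The p-values planned for this fit are not given, since columns within a group differed by less than sampling noise. Intervals are exact Clopper-Pearson intervals from the mean counts, exact conditional odds ratios for MT-ND6, and large-sample log odds ratios for other pairs of transcripts. Reads are not independent molecules, so that intervals cover counting error only.

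Copies were aligned to their genes locally with biopython 1.88. Alternatives changed the normalization, filter, pseudocount, replicate block and tool and left out each column. The members, lists and thresholds were chosen with earlier results of these data known. The named transcripts are the 7 members, other mRNAs of the mitochondrial genome, nuclear complex I transcripts averaging at least 200 counts, the pseudogenes with the most counts and the 5 nearest transcripts. The pseudogene MTND4P12, next by count after MTND2P28 and MTND1P23, had 16 to 34 counts per column. One marker of the line that had been planned is not reported here.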

Additional observations from a re-analysis of the deposited data

How the results depend on the processing

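The direction of the heavy-strand sum was the same under all alternatives, but its size followed the scaling. Against -0.46 with TMM, its log2 fold change was -0.52 with total counts, -0.61 with the upper quartile, -0.32 with no filter, -0.64 with at least 10 counts in every column, -0.42 with DESeq2 and with DESeq2 size factors, and -0.15 on the deposited FPKM scale with a pseudocount of 1 or 0.1, where summing per length also gives short transcripts more weight. Leaving out a column gave -0.47 to -0.46. Since the columns of a group differed by less than sampling noise, leaving 1 out could hardly change any value given here. MT-ND6 against the heavy-strand sum was -0.03, and -0.16 on the FPKM scale with a pseudocount of 1 or 0.1; leaving out a column gave -0.04 to -0.02. The number of members at least 2-fold lower was 0 in place of 1 with no filter, DESeq2, DESeq2 size factors and FPKM with either pseudocount. The number at least 1.5-fold lower was 2 with the upper quartile, where 45% of all transcripts were, and 4 with that 10-count filter, where 24% were. Of the nuclear complex I transcripts, 27 were at least 2-fold higher and 53 lower with no filter, and 3 and 4 with the 10-count filter, where 123 and 28 were tested in place of 61. Of all transcripts 20.7% were higher and 47.6% lower with no filter, and 11% and 12.6% with the 10-count filter. On the FPKM scale with a pseudocount of 1, 13 were lower, where 19.1% of all were. Leaving out a column gave 11 to 13 higher and 23 to 25 lower.

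With the replicate block the heavy-strand sum stayed at -0.46 and MT-ND6 against it at -0.03, with 12 nuclear transcripts higher and 24 lower. Equal replicate numbers did not deviate together (Pearson's r of 0.00 over 2712 transcripts). Columns that differ by less than sampling noise would give such a value under any pairing, so this cannot decide whether the numbers pair the columns. The cause of the other changes was not tested. Counting error was largest for MT-ND6, the member with the fewest counts, and for nuclear transcripts with few counts. Why most nuclear transcripts held few counts was not tested.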

Other observations

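tRNAs that lie between or beside the members were mostly counted on few reads, and their values went in both directions. Counts from poly-A selected RNA are not read here as levels of mature tRNAs. Between MT-ND1 and MT-ND2 lie MT-TI, the isoleucine tRNA, with 136 and 115 counts in EtOH and 203 and 214 in HgCl2, and MT-TM, the methionine tRNA, with 51 and 62 in EtOH and 186 and 165 in HgCl2. Their log2 fold changes were 0.88 (0.55 to 1.21) and 1.78 (1.34 to 2.24). MT-TW, the tryptophan tRNA that follows MT-ND2, was at 0.87 (0.33 to 1.43). MT-TE, the glutamate tRNA beside MT-ND6 on the light strand, had 14 and 21 counts in EtOH and 4 and 4 in HgCl2, at -1.95 (-4.01 to -0.38). MT-TH, the histidine tRNA after MT-ND4, had 19 counts in every column. MT-TR, the arginine tRNA between MT-ND3 and MT-ND4L, had 0 counts in all 4 columns. MT-TL2, the leucine tRNA between MT-ND4 and MT-ND5, was at -1.94 (-4.77 to 0.04), and MT-TG, before MT-ND3, at -2.20 (-12.8 to 1.87). MT-TL1, before MT-ND1, had 662 and 666 counts in EtOH and 719 and 767 in HgCl2, at 0.31 (0.15 to 0.46).

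Of the ribosomal RNAs of the same genome, MT-RNR1 had 15424 and 15483 counts in EtOH and 8877 and 8809 in HgCl2, a log2 fold change of -0.66 (-0.70 to -0.62), and MT-RNR2 had 209360 and 209363 in EtOH and 169945 and 169777 in HgCl2, at -0.16 (-0.17 to -0.15). MT-RNR2 was at 0.02 on the deposited FPKM scale, so its direction depends on the scaling.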
